A study of Mus musculus with 8 samples.

Results

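The 43 genes described here encode the enzymes and subunits of the Polycomb complexes, the trithorax-type histone methyltransferase complexes and the DNA methyltransferases. They were chosen by name as 43 rows of a table of 26146 genes, and all 43 were found and had enough reads to be tested, among 13439 genes that did. Messenger RNA was sequenced from sorted Lin-Sca1+Kit+ (LSK) cells, a bone marrow fraction in which the stem cells of blood and their first multipotent descendants are found. The 4 mice labelled Jmjd6 KO carried floxed Jmjd6 alleles removed from blood-forming cells by a lineage-restricted Cre recombinase that the labels do not name. The other 4 mice are labelled wild type. The labels give the same deletion protocol for both groups and do not say whether wild type mice carried the floxed gene or the Cre. Strain, sex and age are not given. Each library came from 1 mouse.

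Polycomb repressive complex 2 (PRC2) methylates lysine 27 of histone H3, and Polycomb repressive complex 1 (PRC1) ubiquitinates histone H2A and binds the mark that PRC2 leaves. Trithorax-type (COMPASS) complexes methylate lysine 4 of the same histone at promoters and enhancers of active genes. DNA methyltransferases add methyl groups to cytosine. In blood-forming cells these systems are known for holding stem cell and lineage programmes in place, and several of their genes are mutated in human leukaemias. Jmjd6 codes for an oxygenase with a JmjC domain that adds hydroxyl groups to lysine. The comparison here asks whether its deletion went along with altered messenger RNA of these chromatin regulators.

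Total counts per library ranged from 9344779 to 15079960, of which the 43 genes together took 0.43% to 0.481%. Jmjd6 itself (chromosome 11, 116837432 to 116843449, minus strand, mm10) had a mean of 58.6 ± 5.93 CPM (counts scaled to a common library size; SD, n = 4) in the wild type libraries and of 28.7 ± 1.41 CPM in the KO libraries. The log2 fold change was -1.03, and the adjusted p in edgeR's quasi-likelihood test was 0.0381. Jmjd6 reads thus remained in every KO library, between 27.5 and 30.7 CPM, at a fitted fold of 0.49. The source of those reads was not tested. The groups did not overlap, but the call of the targeted gene Jmjd6 was lost when any single library other than KO replicate 3 was left out, with log2 fold changes between -1.06 and -0.99 and an adjusted p of up to 0.254 by edgeR. Of 12 proliferation markers and 7 LSK markers, 0 passed that test. The summed LSK markers (Kit, Ly6a, Cd34, Flt3, Slamf1, Procr and Hlf) lay between 2496 and 3094 CPM in wild type and between 2532 and 2696 CPM in KO. Within that list 2 of 7 had an unadjusted p under 0.05 (6.06% of all genes). The same 2 did not overlap (4.19% of all genes), in opposite directions. Slamf1 lay between 3.98 and 9.04 CPM in wild type and between 9.25 and 11.9 CPM in KO (log2 fold change 0.93), and Hlf between 178 and 276 CPM and between 118 and 161 CPM (-0.65). Wild type replicate 1 stood apart with 423 CPM of summed erythroid markers, against at most 66.2 CPM in the other 7 libraries, and 5485 CPM of granulocyte and monocyte markers, against at most 2412 CPM. On the first principal component of all tested genes KO replicate 3 lay apart, at 83.9 against -28.0 to 9.41. T and NK cell markers, nearly all of it Nkg7, summed to between 135 and 241 CPM in wild type and between 283 and 392 CPM in KO, without overlap. Of the 3 tested, edgeR called 0 (0.0595% of all genes). DESeq2 called 1, Nkg7 (adjusted p = 0.0375 by DESeq2), against 0.491% of all genes. An unadjusted edgeR p under 0.05 was found for 2 of the 3, against 6.06% of all genes. For 2 of the 3 the groups did not overlap, higher in KO, against 2.08% of all genes. The part of other cell types in the values below was not tested. Wild type replicate 4 and KO replicate 3 had 0 CPM of 4 Y-linked genes, so each genotype held 1 such library.

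No difference between KO and wild type was detected in any of the 43 genes: 0 passed an adjusted p of 0.05 over all tested genes by edgeR's quasi-likelihood test, which called 8 genes, or 0.0595%, over the whole table (4 higher and 4 lower in KO, 0.0298% in each direction). At an unadjusted p under 0.05 the count was also 0 of 43, against 6.06% of all tested genes. DESeq2 called 0 of 43 after adjustment (0.491% of all genes) and limma voom called 0 (0.231%). In none of the 43 did the KO libraries all lie on one side of the wild type libraries, where 4.19% of all genes did (2.08% higher and 2.11% lower in KO). The smallest edgeR p among them was 0.0531, of Cbx7, with an adjusted p of 0.812. Log2 fold changes (KO minus wild type) ran from -0.45 for Pcgf2 to 0.20 for Dpy30. In RNA of a whole sorted fraction, fewer cells of a type and less RNA per cell cannot be told apart.

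The fit also bounds how large a change could have been missed. The 95% interval of the log2 fold change lay within a 2-fold change in either direction for 41 of the 43 genes, against 73.6% of all tested genes. The exceptions were Pcgf2, with an interval from -1.45 to 0.54, and Phc3, from -1.03 to 0.42. Within a 1.5-fold change either way lay 17 of 43, against 33.1% of all genes. These intervals hold for 1 gene at a time and are not widened for the number of genes. The median SD between replicates was 0.30 on the log2 CPM scale for the 43 genes and 0.33 for all tested genes, and the 43 were the more strongly expressed, with a median mean log2 CPM of 6.14 against 5.15.

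**Figure D1:**
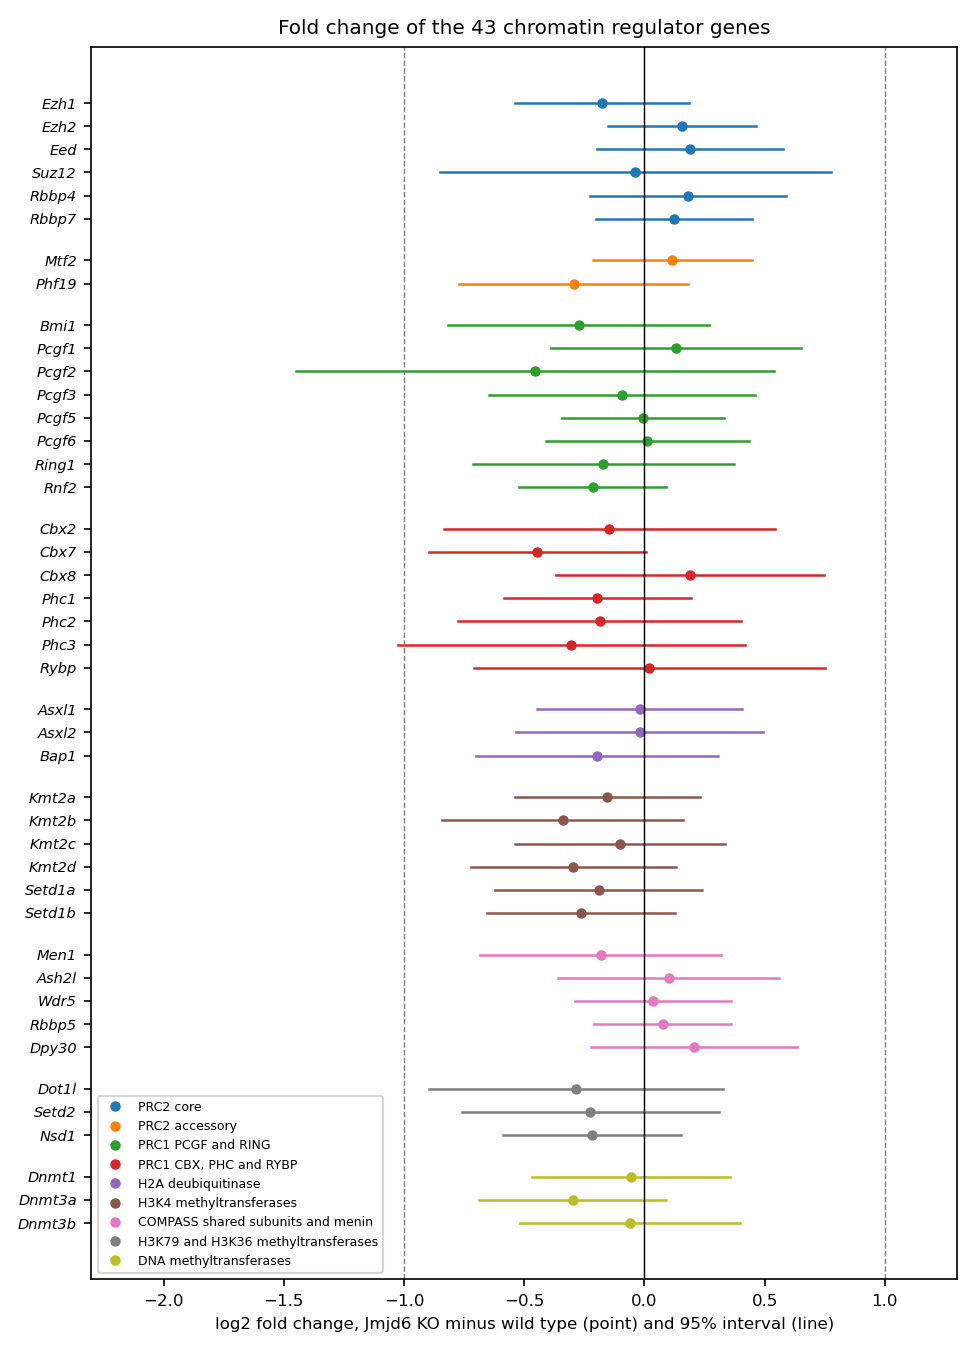
Log2 fold change (KO minus wild type, x axis) of each of the 43 genes, grouped and coloured by complex; points are the edgeR estimates, lines their 95% intervals, and dashed lines mark a 2-fold change. Every interval crosses 0, and all but those of Pcgf2 and Phc3 stay between the dashed lines.

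PRC2 is built around a methyltransferase, EZH1 or EZH2, with EED, SUZ12 and the histone chaperones RBBP4 and RBBP7, which also serve other chromatin complexes. Of the 6 core genes 4 lay above 0 and 2 below, and their median log2 fold change was 0.14 against 0.00 for all tested genes. Of the 4 above 0, Eed turned to -0.09 by limma voom and to -0.12 without KO replicates 3 and 4, and Rbbp7 to -0.07 without the same libraries. KO replicates 3 and 4 were left out after seeing the data and were the highest libraries of both genes. Both turns on leaving them out follow from that choice. Levels are compared between genes as CPM per kb of the longest annotated transcript. Rbbp7 had the highest level of all 43 genes, 310 ± 26.4 CPM per kb in wild type (SD, n = 4), followed within the core by Eed at 83.3 ± 8.40, Rbbp4 at 78.0 ± 15.5, and Ezh2 at 53.8 ± 7.10 CPM per kb. Eed and Rbbp4 did not differ beyond their spread. Rbbp7 (X chromosome, 162760402 to 162779092, plus strand) had 762, 622, 719 and 683 CPM in wild type and 649, 674, 842 and 869 CPM in KO. KO replicates 3 and 4 were the highest libraries and the other 2 lay inside the wild type range, and the log2 fold change was 0.12 (adjusted p = 0.885 by edgeR). Ezh1 and Suz12 were lower, at 15.3 ± 2.38 and 11.9 ± 5.6 CPM per kb.

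Ezh2 (chromosome 6, 47530139 to 47595341, minus strand), the catalytic subunit typical of dividing cells, had 174, 130, 157 and 138 CPM in wild type replicates 1 to 4 and 165, 169, 184 and 151 CPM in KO replicates 1 to 4. The groups overlapped, and the log2 fold change was 0.16 (SE 0.14, adjusted p = 0.852 by edgeR). Ezh1 (chromosome 11, 101191115 to 101226463, minus strand), the paralogue known for its part in quiescent stem cells, had 54.4, 74.3, 71.6 and 57.2 CPM in wild type and 60.0, 60.2, 60.1 and 47.4 CPM in KO. The log2 fold change was -0.18 (SE 0.17, adjusted p = 0.859 by edgeR). KO replicate 4 was the lowest of all 8 libraries, and the other KO libraries lay inside the wild type range. Per length, Ezh2 exceeded Ezh1 in all 8 libraries, 3.52-fold in wild type and 4.44-fold in KO on the mean log2 scale.

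Suz12 (chromosome 11, 79993106 to 80034123, plus strand), the scaffold subunit, varied more between mice than any other of the 43 genes. It had 79.9, 20.3, 54.0 and 54.3 CPM in wild type and 45.0, 53.0, 76.0 and 28.7 CPM in KO, a 3.94-fold range over the 8 libraries. The lowest and the highest value were both wild type, and the log2 fold change was -0.04 with an SE of 0.37 (adjusted p = 0.988 by edgeR). The accessory subunits of the PRC2.1 form diverged in level. Mtf2, a reader that brings PRC2 to CpG islands, stood at 83.9 ± 13.8 CPM per kb in wild type with a log2 fold change of 0.12. Its paralogue Phf19 stood at 4.12 ± 0.746 CPM per kb. Phf19 had 13.0, 18.1, 13.0 and 17.5 CPM in wild type and 11.8, 10.6, 15.3 and 12.6 CPM in KO, overlapping groups with a log2 fold change of -0.30 (standard error 0.22, adjusted p = 0.833 by edgeR).

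**Figure D2:**
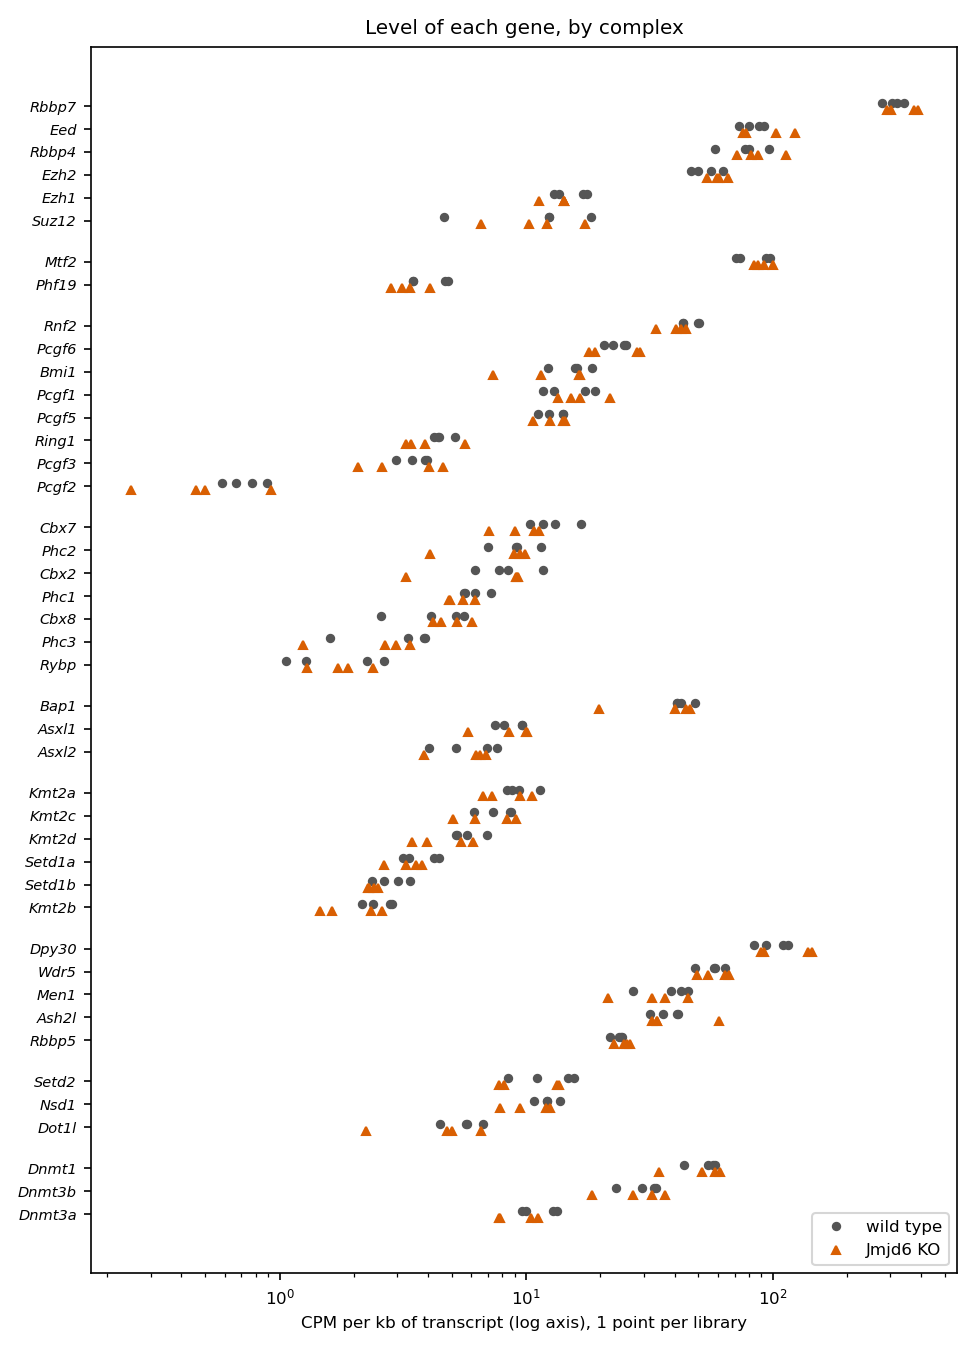
CPM per kb of transcript (log axis) of each gene in every library, ordered within each complex by the wild type mean; circles are wild type and triangles Jmjd6 KO libraries, 4 of each. Rbbp7 is highest at 310 CPM per kb in wild type and Pcgf2 lowest at 0.729, and the circles and triangles of every gene overlap.

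PRC1 pairs an E3 ligase, RING1 or RNF2, with 1 of the PCGF proteins, which sort the complex into variants. The ligase gene Rnf2 (chromosome 1, 151458004 to 151500955, minus strand) had 160, 139, 161 and 139 CPM in wild type and 143, 135, 107 and 130 CPM in KO. KO replicate 3 was the lowest library and KO replicate 1 lay inside the wild type range, and the log2 fold change was -0.22 (SE 0.14, adjusted p = 0.832 by edgeR). Ring1 was far lower, with 8.61, 10.5, 8.94 and 9.02 CPM in wild type and 7.92, 11.5, 6.64 and 6.97 CPM in KO, a log2 fold change of -0.17 (adjusted p = 0.906 by edgeR). Per length Rnf2 exceeded Ring1 by 10.1-fold in wild type and 9.92-fold in KO.

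Among the PCGF genes, Pcgf6 had the highest level per length, at 23.4 ± 2.20 CPM per kb in wild type. Bmi1, Pcgf1 and Pcgf5 followed at 15.6 ± 2.58, 15.3 ± 3.48 and 12.9 ± 1.46 CPM per kb and did not differ beyond their spread. Bmi1 (chromosome 2, 18677018 to 18686629, plus strand), which stem cells need for self-renewal through repression of the Cdkn2a locus, had 66.6, 44.0, 57.5 and 56.7 CPM in wild type and 41.4, 59.2, 59.0 and 26.5 CPM in KO. KO replicates 2 and 3 lay inside the wild type range and KO replicates 1 and 4 below it. The log2 fold change was -0.27 (SE 0.25, adjusted p = 0.854 by edgeR). A near-copy, Gm5946, 97.0% identical over 2658 aligned bases, held at most 4 counts in any library, so few reads were assigned to it.

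Pcgf2 (Mel18), the closest paralogue of Bmi1, had the lowest level of the 43 genes, 0.729 ± 0.133 CPM per kb in wild type. Its libraries held 1.66, 1.93, 2.21 and 1.45 CPM in wild type and 2.29, 1.23, 1.14 and 0.62 CPM in KO, the last from 8 counts. The log2 fold change of -0.45 had an SE of 0.45 (adjusted p = 0.870 by edgeR), so the fit could not tell a change of this size from 0. The part of sequencing depth in that error was not tested. The other PCGF genes, of non-canonical PRC1, gave log2 fold changes of 0.13 for Pcgf1, -0.09 for Pcgf3, -0.01 for Pcgf5 and 0.01 for Pcgf6.

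The chromobox (CBX) proteins of canonical PRC1 read methylated lysine 27, the Polyhomeotic (PHC) proteins polymerise, and RYBP takes the place of CBX in variant complexes. Of these 7 genes 5 lay below 0 (median log2 fold change -0.19). Cbx7 (chromosome 15, 79915807 to 79971119, minus strand), known for promoting stem cell self-renewal, had 35.1, 56.5, 44.5 and 39.5 CPM in wild type and 36.5, 38.1, 23.9 and 30.5 CPM in KO. KO replicates 3 and 4 were below all wild type libraries, and KO replicates 1 and 2 were above wild type replicate 1. The means were 43.9 ± 9.21 and 32.3 ± 6.45 CPM (SD, n = 4), and the log2 fold change of -0.45 (standard error 0.21, adjusted p = 0.812 by edgeR) had an interval from -0.90 to 0.01. Cbx7 was the 1 member with an unadjusted p under 0.05 in DESeq2, at 0.045, against 6.8% of all genes.

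Cbx8, which in blood progenitors can take the same place in PRC1, had 9.28, 18.6, 19.99 and 14.8 CPM in wild type and 14.96, 16.1, 18.8 and 21.5 CPM in KO, a log2 fold change of 0.19 (adjusted p = 0.898 by edgeR). Cbx2 and Phc2 each had 1 low library, KO replicate 3. Cbx2 stood at 12.4 CPM there and at 34.7 to 35.2 CPM in the other KO libraries, and Phc2 at 16.1 CPM against 35.4 to 39.0. Phc1 had 23.7, 23.6, 26.1 and 30.3 CPM in wild type and 26.0, 20.5, 23.3 and 20.8 CPM in KO, and its log2 fold change was -0.20 (adjusted p = 0.853 by edgeR). Phc3 and Rybp gave -0.30 and 0.02. Rybp has a processed copy, Rybp-ps, listed with 0 counts in every library. The deubiquitinase that removes the PRC1 mark is formed by BAP1 with ASXL1 or ASXL2. Asxl1 and Asxl2, the former a gene often mutated in human myeloid disease, both gave -0.02. Bap1 gave -0.20, with 68.1 CPM in KO replicate 3 and 139 to 167 CPM in the other 7 libraries.

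Paralogues that replace each other in a complex were compared as log2 ratios of CPM per kb, each with a two-sided exact permutation test over the 8 libraries, whose smallest possible p is 0.0286. None of the 5 ratios had a p under 0.05 in that test, alone or after Benjamini-Hochberg adjustment over the 5. With that smallest p, a single ratio could not fall under 0.05 after adjustment even with its groups fully apart. The adjusted values therefore cannot decide on a change in 1 pair alone. Cbx7 to Cbx8 gave the smallest p. Its log2 ratios were 1.98, 1.68, 1.23 and 1.49 in wild type and 1.36, 1.31, 0.43 and 0.58 in KO, a mean difference of -0.67 (exact permutation p = 0.0857, adjusted 0.333). All KO ratios lay below 3 of the 4 wild type ratios. Without the libraries that stand apart, wild type replicate 1 and KO replicate 3, that difference was -0.38.

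The log2 ratio of Ezh2 to Ezh1 was 2.27, 1.40, 1.72 and 1.87 in wild type and 2.05, 2.08, 2.21 and 2.26 in KO, a difference of 0.33 (exact permutation p = 0.171, adjusted 0.333). Wild type replicate 1 had the highest ratio of all 8 libraries and the other wild type libraries were below every KO library. Without wild type replicate 1, the library rich in erythroid and granulocyte markers, the difference was 0.49 and the remaining libraries did not overlap. That separation follows from the order just given and is no further evidence. Summed proliferation markers (Mki67, Top2a, Pcna and others, 12 genes) were 5250 CPM in wild type replicate 1, 4042 to 4713 CPM in the remaining wild type libraries and 4714 to 5333 CPM in KO. All 12 genes lay above 0, where 50.4% of all tested genes lay below it, with a median log2 fold change of 0.16 and 0 called. For 2 of the 12 the groups did not overlap, higher in KO, against 2.08% of all tested genes. The part of proliferation in the ratio was not tested. Dnmt3a to Dnmt3b differed by -0.21 (exact permutation p = 0.2), Bmi1 to Pcgf2 by 0.18 (0.714) and Rnf2 to Ring1 by -0.03 (0.943).

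**Figure D3:**
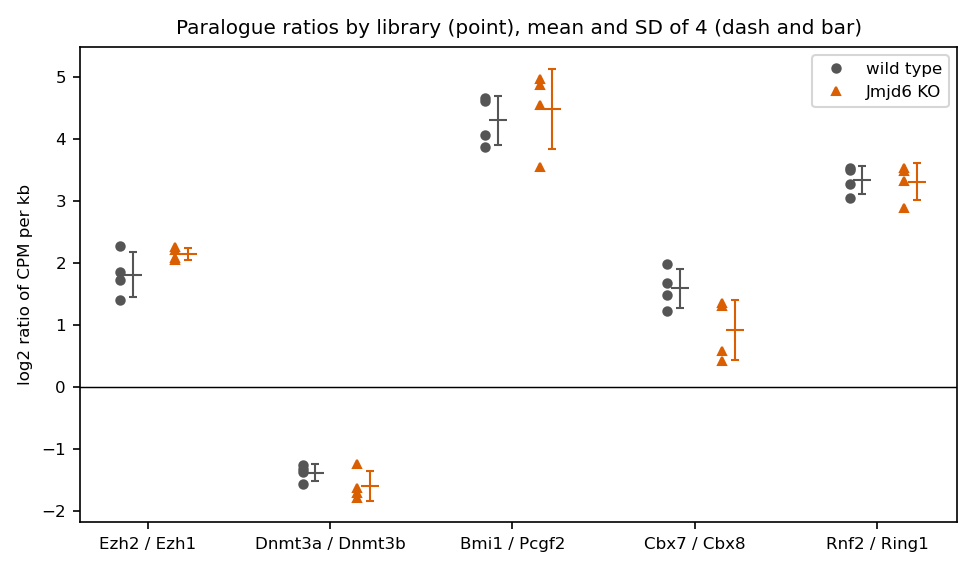
Log2 ratio of CPM per kb for 5 pairs of paralogues (y axis); circles are wild type and triangles Jmjd6 KO libraries, with the mean as a dash and the SD of 4 libraries as a bar. For Ezh2 to Ezh1, 1 wild type circle at 2.27 sits above all 4 triangles and 3 sit below them; for Cbx7 to Cbx8, all triangles sit below 3 of the 4 circles.

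Trithorax-type complexes carry 1 of 6 lysine 4 methyltransferases. KMT2A (MLL1) and KMT2B act at promoters such as those of Hox genes, KMT2C and KMT2D mark enhancers, and SETD1A and SETD1B provide most trimethylation. Each of the 6 genes had a log2 fold change below 0, from -0.10 to -0.34 with a median of -0.23, and 0 of 6 passed edgeR's test. Below 0 lay 30 of all 43 members, against 50.4% of all tested genes, with a median log2 fold change of -0.15 against 0.00. Kmt2d (chromosome 15, 98831669 to 98871204, minus strand) had 103, 138, 114 and 104 CPM in wild type and 120, 108, 68.0 and 78.2 CPM in KO. KO replicates 1 and 2 lay inside the wild type range, and replicates 3 and 4 below it, and the log2 fold change was -0.30 (SE 0.20, adjusted p = 0.833 by edgeR).

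Kmt2b (chromosome 7, 30568858 to 30588726, minus strand) showed the same arrangement, with 24.3, 20.2, 23.7 and 18.2 CPM in wild type and 22.1, 19.9, 12.4 and 13.9 CPM in KO, and a fitted log2 difference of -0.34 (SE 0.23, adjusted p = 0.833 by edgeR). Kmt2a (chromosome 9, 44803355 to 44881296, minus strand), the gene rearranged in MLL leukaemia, had 155, 144, 187 and 138 CPM in wild type and 175, 156, 110 and 119 CPM in KO (log2 fold change -0.16 with an SE of 0.18, adjusted p = 0.883 by edgeR). Setd1b had 30.04, 26.9, 23.5 and 20.997 CPM in wild type and 20.3, 22.2, 20.5 and 21.5 CPM in KO. Here the 4 KO libraries were close together, and wild type replicate 4 lay among them, and the log2 fold change was -0.26 (SE 0.18, adjusted p = 0.833 by edgeR). Kmt2c and Setd1a gave -0.10 and -0.19. Per length these genes were among the less abundant of the 43, from 9.48 ± 1.31 CPM per kb for Kmt2a to 2.55 ± 0.341 for Kmt2b in wild type.

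The subunits shared by these enzymes, ASH2L, WDR5, RBBP5 and DPY30, form the core that activates them, and menin (Men1) ties KMT2A and KMT2B to their targets. Dpy30, Wdr5, Ash2l and Rbbp5 stood at 101 ± 14.7, 57.2 ± 6.48, 37.5 ± 4.5 and 23.6 ± 1.21 CPM per kb in wild type, each above all 6 methyltransferase genes. Rbbp5 was the steadiest of the 43 genes, between 74.0 and 89.4 CPM in all 8 libraries, a 1.21-fold range. All 4 core genes lay above 0, with log2 fold changes of 0.20 for Dpy30, 0.03 for Wdr5, 0.10 for Ash2l and 0.08 for Rbbp5, and Men1 gave -0.18. All but Rbbp5 changed sign under at least 1 of the alternatives run. Scaled by library size alone, Wdr5 lay just below 0, Ash2l turned to -0.24 without wild type replicate 1 and KO replicate 3, and Dpy30 turned to -0.15 without KO replicates 3 and 4. KO replicate 3 was the highest library of Ash2l, and KO replicates 3 and 4 were the highest of Dpy30. The turns of Ash2l and Dpy30 thus follow from the libraries left out. Ash2l stood at 201 CPM in KO replicate 3 and between 105 and 136 CPM in the other 7 libraries.

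Among the other histone methyltransferases, Dot1l acts on lysine 79 of histone H3, and Setd2 and Nsd1 on lysine 36. All 3 lay below 0. Nsd1 (chromosome 13, 55209782 to 55318325, plus strand) had 155, 138, 175 and 155 CPM in wild type and 154, 160, 121 and 100 CPM in KO, with 2 KO libraries inside and 2 below the wild type range (log2 fold change -0.22 with an SE of 0.17, adjusted p = 0.841 by edgeR). Dot1l and Setd2 gave -0.28 and -0.22, and Dot1l was at 15.3 CPM in KO replicate 3 against 30.5 to 45.7 CPM elsewhere.

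DNA methylation is copied at replication by DNMT1 and set anew by DNMT3A and DNMT3B. Dnmt3a (chromosome 12, 3806007 to 3914443, plus strand), whose loss is known to expand stem cells, had 96.8, 130, 124 and 93.6 CPM in wild type and 108, 102, 75.4 and 75.9 CPM in KO. KO replicates 3 and 4 were below all wild type libraries and the other 2 were inside the range. The log2 fold change was -0.30 (SE 0.18, adjusted p = 0.832 by edgeR), the second smallest p of the 43. Dnmt3b had 128, 145, 142 and 99.9 CPM in wild type and 158, 140, 79.5 and 117 CPM in KO, and a fitted log2 difference of -0.06 (SE 0.21, adjusted p = 0.962 by edgeR). Dnmt1 gave -0.05 and was the most abundant of the 3 per length, at 53.4 ± 6.75 CPM per kb in wild type, against 29.8 ± 4.76 for Dnmt3b and 11.5 ± 1.91 for Dnmt3a.

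The libraries did not contribute evenly to these small differences. KO replicate 3 held the lowest value of 16 of the 43 genes and KO replicate 4 of 10, against 2 each in KO replicates 1 and 2 and 13 in the 4 wild type libraries together. Over all tested genes, the most frequent pairs of lowest wild type and lowest KO library also held KO replicate 3 (15.6%) and KO replicate 4 (13.2%). The unevenness was thus not confined to the 43 genes. The median of the 43 genes lay 0.19 and 0.16 below the gene means on the log2 scale in KO replicates 3 and 4, and 0.11 and 0.09 above them in KO replicates 1 and 2. With KO replicates 3 and 4 left out, a choice made after seeing the data, the median log2 fold change of the 43 was 0.00, with 21 of 43 below 0 and 4 of the 6 lysine 4 methyltransferases below 0. Because those libraries held most of the lowest values, a rise of the median follows from the choice and is no further evidence.

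**Figure D4:**
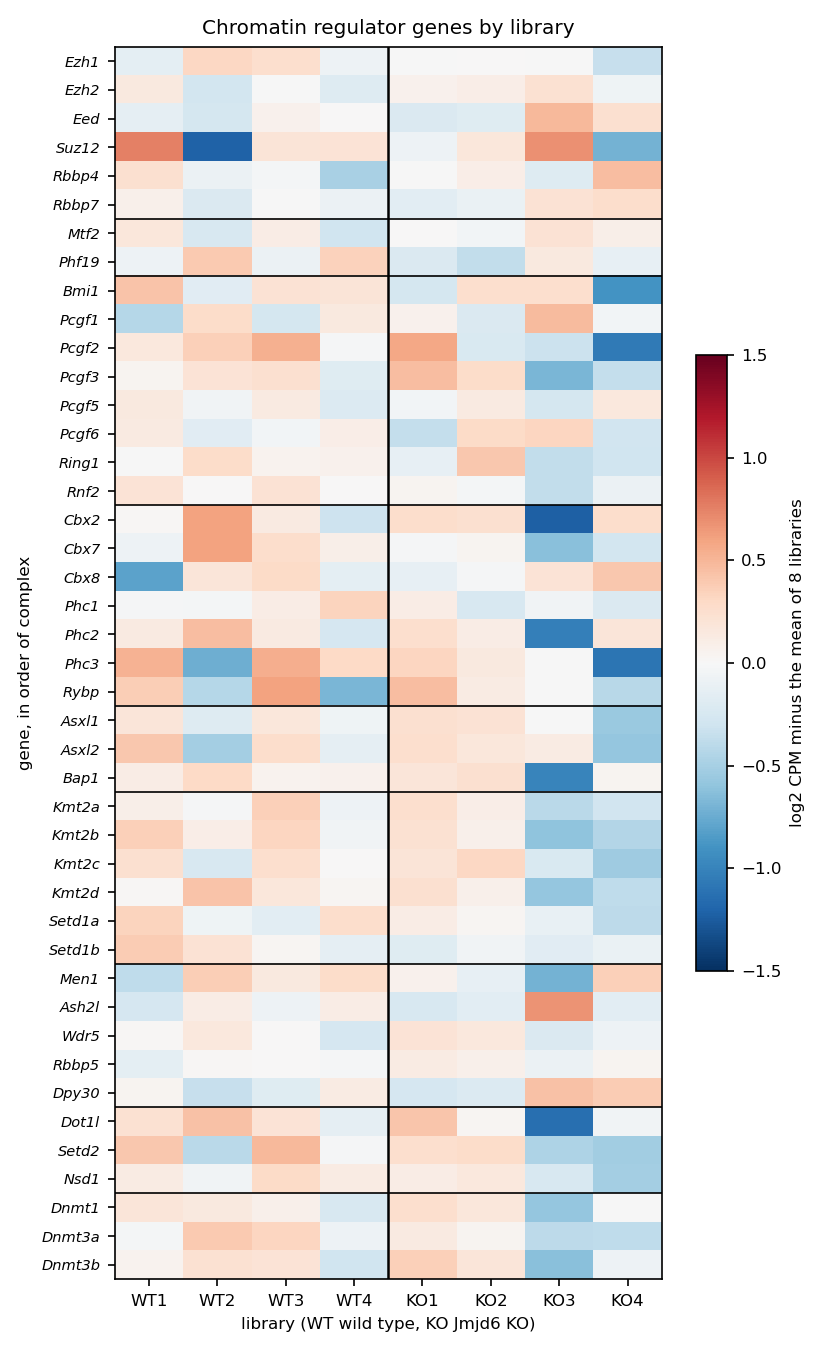
Log2 CPM of each gene (rows, by complex) in each library (columns) minus its mean over the 8 libraries; blue is below and red above the mean. Blue is most frequent in the columns of KO replicates 3 and 4, which hold the lowest value of 16 and 10 of the 43 genes, and Suz12 and Phc3 are low in both wild type replicate 2 and KO replicate 4.

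Transcript length moved with the same pattern. Among the 43 genes, 16 had a longest transcript of 5000 bases or more, the 6 lysine 4 methyltransferases among them, and all 16 lay below 0 (median log2 fold change -0.20). With single libraries left out, 12 to 16 of these long members lay below 0. The count was 10 by limma voom (median -0.06) and 10 without wild type replicate 1 and KO replicate 3. Without KO replicates 3 and 4 it was 5, with a median of 0.04. Left out after seeing the data, those libraries were the lowest for the long members, so a fall of that count follows from the choice. Of the 27 shorter members 14 lay below 0, with a median of -0.04. Over all tested genes, 1816 of 2521 long genes lay below 0 with a median of -0.12, and 4822 of 10666 shorter ones with a median of 0.03. In KO replicates 3 and 4 the long members lay 0.33 and 0.39 below their means, and all long genes 0.17 and 0.25 below. The part of transcript length in the fold changes was not tested. After removal of the trend of log2 fold change on length and expression level across all genes, the median of the 43 was -0.03. Below 0 then lay 10 of the 16 long members and 18 of the 27 shorter ones, and the 6 methyltransferases ran from -0.14 to 0.07.

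**Figure D5:**
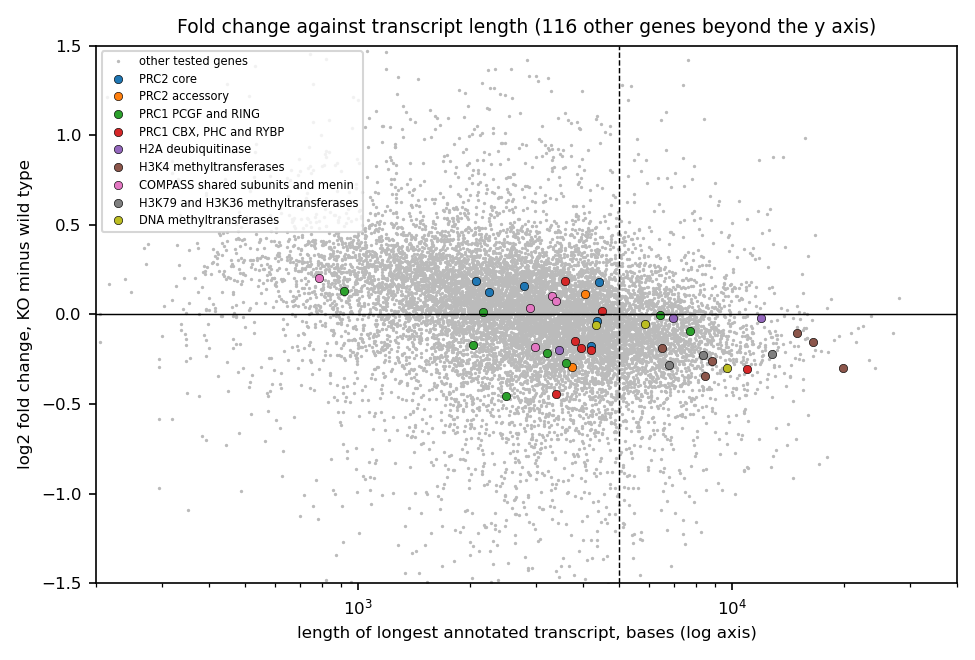
Log2 fold change (KO minus wild type) against the length of the longest annotated transcript (log axis) for the 43 genes, coloured by complex, over all other tested genes in grey; the dashed line marks 5000 bases, and 116 other genes lie beyond the y axis. All 16 coloured points right of the dashed line are below 0, where 1816 of 2521 of all long genes also lie.

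The lowest libraries of the groups were also tallied in pairs. In 9 of the 43 genes, or 20.9%, wild type replicate 2 was the lowest wild type library and KO replicate 4 the lowest KO library, Suz12, Phc3 and Asxl2 among them, and in 12, or 27.9%, the lowest were wild type replicate 4 and KO replicate 3, the 2 libraries without Y-linked transcripts. Over all tested genes these pairs took 13.2% and 15.6%. Each library was often the lowest of its own group among the 43 genes, wild type replicates 2 and 4 in 15 and 16 and KO replicates 3 and 4 in 19 and 13, so some of these pairs would coincide without a link. Phc3 had 42.2, 17.6, 42.9 and 36.4 CPM in wild type and 37.0, 32.5, 29.4 and 13.7 CPM in KO, so that its 2 low libraries came from different groups.

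Of 62 further gene symbols of the same pathways, 60 were found, 58 could be tested and 0 passed edgeR's test over all genes. Those not found, Whsc1 and Whsc1l1, are older symbols of Nsd2 and Nsd3, which were tested. By unadjusted p, 2 of 58 were under 0.05, against 6.06% of all tested genes. Below 0 lay 43 of the 58, or 74.1%, with a median of -0.10, against 50.4% of all tested genes. The median length of their longest transcripts was 5282 bases. Of all tested genes of 5000 bases or more, 1816 of 2521 lay below 0, with a median of -0.12. The part of length in these counts and in those of the lists below was not tested. In the list of other PRC1 genes 14 of 15 lay below 0, with Scmh1 at -0.42 and Auts2 at -0.54, and in that of other deubiquitinase partners 6 of 6. Other COMPASS subunits were split, with 4 above and 5 below 0, as were the lysine 36 and lysine 9 methyltransferases, with 5 above and 3 below. Of the histone demethylases 6 of 7 and of the DNA methylation readers and erasers 7 of 9 lay below 0. Mbd6, whose product joins the BAP1 deubiquitinase, had 24.6, 25.4, 18.1 and 17.2 CPM in wild type and 13.4, 11.2, 11.8 and 9.68 CPM in KO. Every KO library was below every wild type library, and the log2 fold change was -0.89 (SE 0.22), and the adjusted p was 0.387 by edgeR, 0.15 by limma voom and 0.0326 by DESeq2. The other gene was Phf1, the third paralogue of Mtf2 and Phf19, with 12.1, 24.9, 18.1 and 14.7 CPM in wild type and 12.6, 14.0, 5.49 and 11.2 CPM in KO (log2 fold change -0.69, adjusted p = 0.811 by edgeR). Suv39h2, a lysine 9 methyltransferase, had 20.1, 19.7, 19.6 and 20.997 CPM in wild type and 24.5, 21.2, 27.6 and 24.6 CPM in KO. Its groups did not overlap either, and its log2 fold change was 0.28 (adjusted p = 0.832 by edgeR). Of the 58, groups did not overlap for 1 higher and 1 lower in KO, against 2.08% and 2.11% of all tested genes. DESeq2 called 1 of the 58 after adjustment, against 0.491% of all tested genes.

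Genes known to be governed by these complexes were measured for the same libraries. Cdkn2a, the locus that Bmi1 represses, had 1 count in wild type replicate 2, 1 in KO replicate 4 and 0 in the other 6 libraries, and Cdkn2b had 0 counts in all 8. Of 15 such genes 11 could be tested and 0 passed edgeR's test over all genes. Their median log2 fold change was -0.36 against 0.00 for all tested genes, 10 of the 11 lay below 0 against 50.4%, and 2 had an unadjusted p under 0.05 against 6.06%. Lin28b counted among the 11 with 0 counts in wild type replicate 1 and KO replicate 3, and its interval ran from -3.47 to 1.02. Cdkn1c, an imprinted cell cycle inhibitor, had 6.18, 8.05, 10.1 and 7.82 CPM in wild type and 4.66, 3.39, 7.02 and 4.03 CPM in KO (log2 fold change -0.75, adjusted p = 0.772 by edgeR). Mecom, a stem cell transcription factor gene that KMT2A activates, had 56.4, 32.7, 59.4 and 75.0 CPM in wild type and 43.5, 42.0, 40.0 and 23.9 CPM in KO (-0.58, adjusted p = 0.811 by edgeR). Both overlapped between the groups. Hoxa9 and Meis1, the best known KMT2A targets, gave -0.38 and -0.24 (adjusted p = 0.832 and 0.833 by edgeR).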

How the data were processed

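Polyadenylated RNA of LSK cells was measured in 8 mice, 4 of each genotype. The deposited values are raw counts per gene symbol, made by the authors from reads aligned with HISAT2 to mm10, per the submitters' processing notes; not given in the sources used here are how reads were counted, with which annotation and whether by strand. Genes that overlap on opposite strands, such as Mtf2 with Tmed5 and Rbbp4 with Sync, may therefore share counts. Setd1a, Rbbp7, Pcgf1, Rbbp5, Rbbp4, Kmt2a and Kmt2d share stretches with other annotated genes that have no counts here. Those stretches are at least 95% identical over 300 bases or more, and how their reads were assigned is not known. The 43 members, the other gene lists, the alternatives and the genes named were chosen with earlier results of these data known. All members have a log2 fold change; values in every library are given for the 10 with the smallest p, the paralogue pairs and members that stand apart. Suz12, Phc3 and Kmt2a were singled out after their values were seen. A gene of a marker list is not reported here.

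KO was tested against wild type over 8 libraries with edgeR 4.0.16 in R 4.3.3 (quasi-likelihood test, TMM scaling, filterByExpr with min.count 10 and min.total.count 15), with Benjamini-Hochberg adjustment over 13439 genes, called under 0.05. CPM values use TMM-adjusted library sizes, and log2 ratios a prior count of 2. Alternatives were the Wald test of DESeq2 1.42.0, voom with sample weights of limma 3.58.1, other scalings and filters, a replicate block, Y-linked expression as a covariate, removal of a length and level trend, and leaving out libraries. Lengths and positions came from GENCODE M21 on GRCm38, the assembly mm10 names; 25358 of 26146 symbols and all 43 members matched. The longest transcript may exceed the one expressed, which lowers a value per kb. The scripts were tested on simulated data. Same-numbered libraries did not deviate together (correlations from -0.19 to 0.03 over genes). No pair of replicates agreed within sampling noise (chi-square at least 6.89 per degree of freedom). Each library came from a separate mouse, so p-values include the spread between mice.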

Additional observations from a re-analysis of the deposited data

Results flagged for a closer look

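Of 98 groups of 4 libraries checked (43 members, Jmjd6 and 5 ratios in 2 groups), 4 held a library far from the other 3 of its group; chance alone flags about 1 in 20 groups. In KO replicate 3, Cbx2 stood at 12.4 CPM, while the remaining KO libraries lay between 34.7 and 35.2 CPM. Phc2 stood at 16.1 CPM there (the rest between 35.4 and 39.0 CPM) and Ash2l at 201 CPM (the rest between 107 and 112 CPM). In KO replicate 4, Ezh1 stood at 47.4 CPM, with the rest between 60.0 and 60.2 CPM.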

How the results depend on the processing

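The count of members called was 0 under every alternative run. Of 817 member fold changes under alternatives, 811 moved by less than the SD between replicates, and 27 of 43 members changed sign at least once. The median of that SD, 0.30, exceeded the median absolute log2 fold change of the members, 0.18. Many fold changes could thus vanish or turn without passing that bound, so the count of 811 does not show stability. The median log2 fold change of members, -0.15, ran from -0.18 to -0.05 with single libraries left out, was -0.02 without wild type replicate 1 and KO replicate 3 together, -0.04 by limma voom, and 0.00097 without KO replicates 3 and 4, the last chosen after seeing the data. KO replicates 3 and 4 held the lowest value of 16 and 10 members, so a rise without them follows from that choice. The 8 genes called over the whole table were 2 to 8 with single libraries left out, 4 without wild type replicate 1 and KO replicate 3, 1 without KO replicates 3 and 4, 66 by DESeq2, 31 by limma voom, 13 with Y-linked expression as a covariate, 2 at an adjusted p under 0.01 and 3 with the replicate block. The targeted gene Jmjd6 gave -1.06 to -0.99 with single libraries left out, its call held only without KO replicate 3; the call was also lost at -1.11 without wild type replicate 1 and KO replicate 3, at -1.05 without KO replicates 3 and 4, and at -1.02 with the replicate block (adjusted p = 0.402 by edgeR), where same-numbered libraries shared only a number. With single libraries left out, the ratio of Ezh2 to Ezh1 differed by 0.20 to 0.49, and that of Rnf2 to Ring1 by -0.12 to 0.12; the latter was 0.033 without wild type replicate 1 and KO replicate 3. The log2 Bmi1 to Pcgf2 ratio difference turned to -0.0072 with log2(CPM + 1). Pcgf2, at 8 counts in 1 library, was the member with the lowest counts. The cause of these changes was not tested.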
